A study of Sus scrofa with 6 samples.

Results

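The basement membrane is the thin sheet of matrix that underlies the endothelium and surrounds each smooth muscle cell of the arterial wall. Laminins are its cell-facing network, and each laminin is a trimer of 1 alpha, 1 beta and 1 gamma chain that is assembled inside the cell and bound at the cell surface by integrins and dystroglycan. The alpha chain carries the main cell-binding domains, nidogens bridge the gamma chain of laminin to type IV collagen, and the heparan sulfate proteoglycans perlecan and agrin tie the network together and hold growth factors.

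The genes followed here encode 6 laminin chains (LAMA2, LAMA4, LAMA5, LAMB1, LAMB2 and LAMC1), both nidogens (NID1 and NID2), perlecan (HSPG2) and agrin (AGRN). They were taken by gene name from the deposited table of 30477 genes. Of these 10 genes, 9 had a row under their name. LAMA5 had none, but the row of ENSSSCG00000032761 carries the description laminin subunit alpha 5 in the file and the symbol LAMA5 in the gene name table, so it was used as LAMA5. Its biotype in the file is pseudogene. The abdominal aorta of male Wuzhishan miniature pigs was sequenced in 3 pigs kept on normal chow (NC) and in 3 pigs kept on the HFCF diet, a chow with added fat, cholesterol and fructose, both for 6 months. The sample labels give the age as 3 to 4 months and the study's methods give a higher age at purchase. Each pig gave 1 library of whole aortic wall, so a smaller number of cells of a type and less RNA per cell cannot be told apart. ACTA2, the smooth muscle actin, had the highest mean FPKM of all genes in the NC group (rank 1).

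Values are FPKM, that is, fragments scaled to the exon length of the gene and to the mapped reads of the library, so levels of different genes are compared per length. Read depths were not used here, and the precision of a value was taken from the spread among 3 pigs. Changes with diet are given as log2FC, the difference of the group means of log2(FPKM + 0.1), which understates the change of low genes. The p-values come from limma across 15384 genes whose mean FPKM reached 0.1, and adjusted values follow Benjamini-Hochberg over all of these genes. Over all tested genes the median log2FC was 0.32, and the FPKM values summed to 272207 to 287141 in the NC pigs and to 330222 to 338690 in the HFCF pigs. Of all called genes, 78.7% were higher in the HFCF group (3505 higher and 948 lower), and this share was 50.8% after median-ratio scaling (2032 and 1968), 50.1% after quantile normalization (1766 and 1759) and 59.3% after rescaling to TPM (2229 and 1527).

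In HFCF-fed pigs, 4 of the basement membrane genes fell, namely LAMA5, LAMC1, LAMB2 and HSPG2, which encode the chains of the laminin trimer alpha 5, beta 2, gamma 1 and perlecan. LAMA5 fell 2.58-fold, LAMC1 2.07-fold, HSPG2 1.80-fold and LAMB2 1.69-fold by the ratio of group means. Among the 9 genes tested, 4 were called lower at an adjusted p under 0.05, against 6.16% of all tested genes, and 0 were called higher in limma, against 22.8% of all tested genes. At an unadjusted p under 0.05, 1 gene was higher, AGRN. The median log2FC of the 9 genes was -0.63, against 0.32 over all tested genes. The values of the groups did not overlap in 5 of them in the lower direction, against 12.1% of all tested genes, and in 1 in the higher direction, against 36.1%. By the study's thresholds for differentially expressed genes (DEGs), that is, a more than 2-fold ratio of means with an unadjusted p (here from limma) under 0.05, 2 genes were lower, LAMA5 and LAMC1, against 4.82% of all tested genes.

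**Figure D1:**
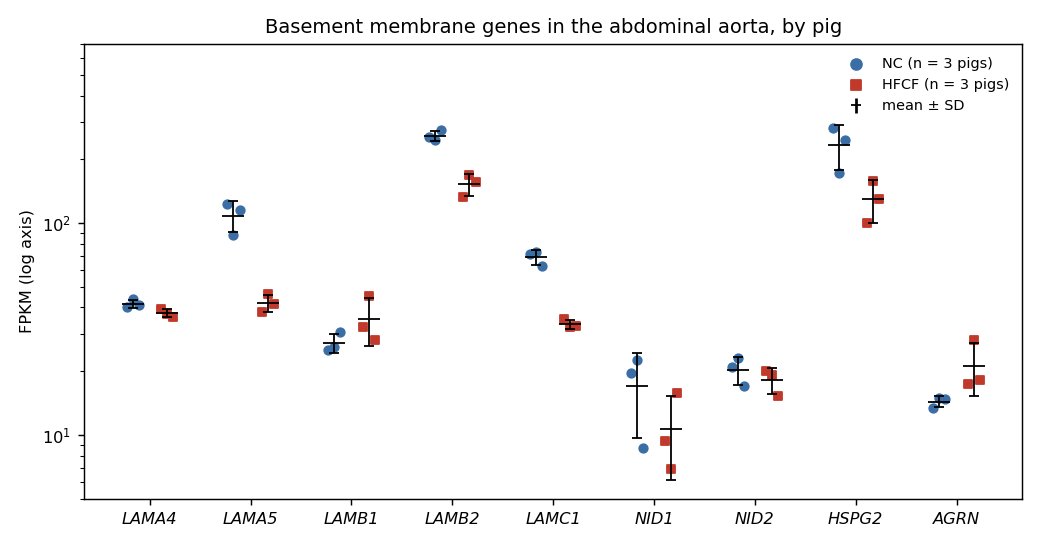
FPKM of each tested gene (log axis) in the 3 NC pigs (blue circles) and the 3 HFCF pigs (red squares), with the mean and SD of each group. The HFCF values of LAMA4, LAMA5, LAMB2, LAMC1 and HSPG2 lie below all NC values of the same gene, and those of AGRN lie above them.

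Among the alpha chains, LAMA5 is the chain of the trimers laminin-511 and laminin-521, found in mature endothelial and smooth muscle basement membranes. It had 122.6, 88.1 and 114.8 FPKM in the NC pigs and 38.1, 46.1 and 41.7 FPKM in the HFCF pigs. Every HFCF pig was below every NC pig, and the lowest NC pig was the second. The mean fell from 108.5 ± 18.1 to 42.0 ± 4.03 FPKM (SD, n = 3 each), with a log2FC of -1.36, its SE 0.17 and the adjusted p = 0.00268 (limma). Of all tested genes, 3.28% had a more negative log2FC.

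LAMA4, the alpha chain of laminin-411 that is made by vascular and other mesenchymal cells, had 40.2, 43.8 and 40.9 FPKM in the NC pigs and 39.4, 37.3 and 36.2 FPKM in the HFCF pigs. The groups did not overlap, but they lay close together. The log2FC was -0.15 (95% confidence interval -0.44 to 0.14, adjusted p = 0.398, limma), and it was called only after median-ratio scaling (log2FC -0.50, adjusted p = 0.0231, limma), with adjusted p-values from 0.0231 to 0.621 over 15 alternatives. LAMA5 thus stood above LAMA4 in every NC pig, while in the HFCF group the ranges of both genes overlapped.

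LAMA2, the alpha chain of laminin-211 of muscle and peripheral nerve, was listed at 0 in all 6 libraries and was not tested. Whether such a value of 0 is a failed estimate or absent RNA was not tested. EXT2, a heparan sulfate polymerase that cells in general use, was listed at 0.0036 to 0.116 FPKM, low but not 0. It is named here after its values were seen. No statement on the expression of LAMA2 was therefore drawn from these values.

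Of the beta chains, LAMB2 fell and LAMB1 did not pass the test. LAMB2, the beta 2 chain that is prominent in the arterial wall and at the neuromuscular junction, had the highest mean level of all 10 genes, with 254, 247 and 275 FPKM in the NC pigs and 133, 169 and 157 FPKM in the HFCF pigs. The groups were far apart compared with their spread. The mean fell from 259 ± 14.7 to 153 ± 18.4 FPKM (SD, n = 3 each), with a log2FC of -0.77, its SE 0.15 and the adjusted p = 0.0112 (limma). LAMB1, the beta 1 chain, had 25.1, 25.9 and 30.5 FPKM in the NC pigs and 32.4, 45.3 and 28.0 FPKM in the HFCF pigs. Its groups overlapped, since the third HFCF pig was below the third NC pig. The log2FC of LAMB1 was 0.35 (95% confidence interval -0.13 to 0.83, adjusted p = 0.236, limma), 0.03 above the median of all tested genes, and it turned to -0.007 after median-ratio scaling.

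LAMC1, the gamma 1 chain that most laminins share and that carries the nidogen-binding site, had 71.8, 73.1 and 62.6 FPKM in the NC pigs and 35.3, 32.3 and 32.5 FPKM in the HFCF pigs. The HFCF values were close to each other and far below the NC values. The mean fell from 69.1 ± 5.69 to 33.4 ± 1.68 FPKM (SD, n = 3 each), with a log2FC of -1.05, its SE 0.13 and the adjusted p = 0.00264 (limma). Of all tested genes, 5.53% had a more negative log2FC. The calls of LAMA5, LAMB2 and LAMC1 were kept in each of 15 alternative fits, with adjusted p-values of at most 0.0191, 0.0454 and 0.0186 (limma).

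The nidogens were not called. NID1 had 19.6, 22.6 and 8.68 FPKM in the NC pigs and 9.41, 6.95 and 15.8 FPKM in the HFCF pigs. The third pig of each group stood against the other two, low among the NC pigs and high among the HFCF pigs, so the groups overlapped. The log2FC of NID1 was -0.63 with a wide 95% confidence interval of -1.64 to 0.38 (adjusted p = 0.306, limma). NID2 had 20.9, 23.0 and 16.98 FPKM in the NC pigs and 20.1, 19.3 and 15.3 FPKM in the HFCF pigs. The third pig was the lowest in both groups. Its log2FC was -0.15 (95% confidence interval -0.58 to 0.27, adjusted p = 0.553, limma).

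The 3 pigs with the highest NID1 were the first and second NC pig and the third HFCF pig. They also had the highest sums of 7 fibroblast markers, at 3475, 4230 and 4404 FPKM against 1941 to 2606 in the other 3. The pigs were grouped here by nidogen values already seen. COL1A1 and COL1A2 carried most of this sum and, with PI16, split the pigs in the same way, whereas LUM, DCN, PDGFRA and DPT did not. LUM had 200.2 and 174.5 FPKM in the first and second HFCF pig, against 41.4 and 61.8 in the first and second NC pig. Among the adipocyte markers, PLIN1, LEP, CIDEC and LIPE also split the pigs in this way, whereas ADIPOQ and FABP4 did not. PLIN1 had 19.1, 33.3 and 4.46 FPKM in the pigs with high NID1, against 0.669, 1.40 and 0.245 in the rest. The summed adipocyte markers did not split so, at 93.1 FPKM in the third HFCF pig against 100.9 in the first. The 2 pigs with the lowest NID2 were the third of each group. They had the lowest summed FPKM of 7 endothelial markers, at 122.4 and 102.7 against 163.9 to 249.2 in the other pigs. PECAM1, CDH5 and TIE1 were lowest in these pigs, whereas VWF, TEK, KDR and ERG did not follow this split. ERG had 29.2 FPKM in the third NC pig, against 17.5 and 21.5 in the first and second. The part of these cell types in the spread of the nidogens was not tested.

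Perlecan and agrin, the large heparan sulfate proteoglycans of the set, differed in their calls. HSPG2 had 282, 172 and 246 FPKM in the NC pigs and 100.1, 159 and 130.4 FPKM in the HFCF pigs. The groups did not overlap, but the second NC pig was only a little above the second HFCF pig. The mean fell from 234 ± 56.1 to 129.7 ± 29.2 FPKM (SD, n = 3 each), with a log2FC of -0.84, its SE 0.25 and the adjusted p = 0.0415 (limma). This call was the least secure of the 4 and was lost in 7 of 15 alternatives. The adjusted p of HSPG2 (limma) was 0.137 without the first NC pig, 0.105 without the third NC pig, 0.095 without the first HFCF pig and 0.0824 without the third HFCF pig, and 3 genes of the set were then called lower. AGRN had 13.4, 15.0 and 14.9 FPKM in the NC pigs and 17.5, 28.1 and 18.1 FPKM in the HFCF pigs. All HFCF values were above all NC values, and the second HFCF pig was far above the rest. The log2FC was 0.53 (95% confidence interval 0.04 to 1.01, unadjusted p = 0.0391, adjusted p = 0.0995, limma), so AGRN did not pass, and it lay 0.20 above the median of all tested genes.

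**Figure D2:**
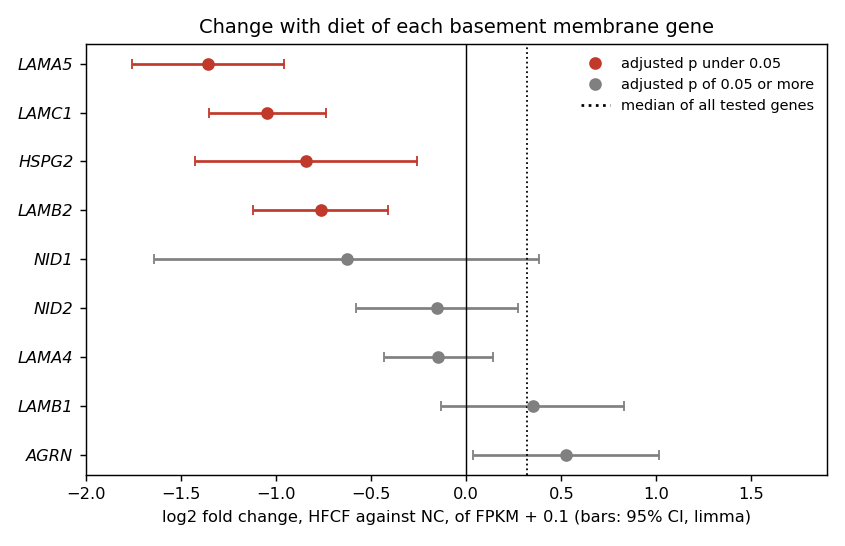
log2FC of each tested gene in the HFCF group against the NC group, with its 95% confidence interval from limma. The 4 genes with an adjusted p under 0.05 (red) have intervals below 0, and the dotted line marks the median of all tested genes at 0.32.

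In the NC group the order of the mean levels was LAMB2, HSPG2, LAMA5, LAMC1, LAMA4, LAMB1, NID2, NID1 and AGRN. Of the neighbours in this order, LAMB2 and HSPG2 overlapped, as did NID2 with NID1 and NID1 with AGRN. In the HFCF group the order was LAMB2, HSPG2, LAMA5, LAMA4, LAMB1, LAMC1, AGRN, NID2 and NID1. Every pair of neighbours in the HFCF order overlapped in range except HSPG2 with LAMA5 and LAMC1 with AGRN. LAMC1 was above LAMA4 and LAMB1 in every NC pig, whereas in the HFCF pigs it was below all values of LAMA4 and within the range of LAMB1.

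Shares and ratios within a library do not change when all values of a library are multiplied by 1 factor, so the genes of each chain class were compared with each other in this way. With 3 pigs against 3, a two-sided exact permutation test cannot go below p = 0.1. Its lowest adjusted p was 0.163 over 13 comparisons, which also held the alpha chain sum, the beta chain sum and LAMC1 alone. Those FPKM values, unlike the shares and ratios, do change with such a factor. LAMA5 made up 75.3%, 66.8% and 73.7% of LAMA4 plus LAMA5 in the NC pigs, against 49.1%, 55.3% and 53.6% in the HFCF pigs. LAMA2, which was listed at 0, and the alpha chains outside the set do not enter this share. LAMB2 made up 91.0%, 90.5% and 90.0% of LAMB1 plus LAMB2 in the NC pigs, against 80.3%, 78.8% and 84.9% in the HFCF pigs. Neither share overlapped between groups, with a difference of -19.3 percentage points for LAMA5 and -9.16 for LAMB2 (exact permutation p = 0.1 each, the smallest possible).

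AGRN made up 4.52%, 7.99% and 5.70% of the sum of AGRN and HSPG2 in the NC pigs, against 14.9%, 15.1% and 12.2% in the HFCF pigs (exact permutation p = 0.1). Measured against LAMC1, the sum of both nidogens was 0.565, 0.625 and 0.410 in the NC pigs. It was 0.836, 0.813 and 0.955 in the HFCF pigs, again without overlap (exact permutation p = 0.1). This is no rise of the nidogens themselves, with log2FC values of -0.63 for NID1, -0.15 for NID2 and -1.05 for LAMC1. In contrast, the NID2 share of both nidogens overlapped, at 50.4% to 66.2% in the NC group and 49.2% to 73.5% in the HFCF group (exact permutation p = 0.5). LAMA4 and LAMA5 summed to 2.19 ± 0.35 times LAMC1 in the NC group and to 2.39 ± 0.19 times LAMC1 in the HFCF group (SD, n = 3 each), and these values overlapped (exact permutation p = 0.5). HSPG2 was 3.41 ± 0.91 times LAMC1 in the NC group and 3.92 ± 1.04 times LAMC1 in the HFCF group, also with overlap (exact permutation p = 0.5).

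**Figure D3:**
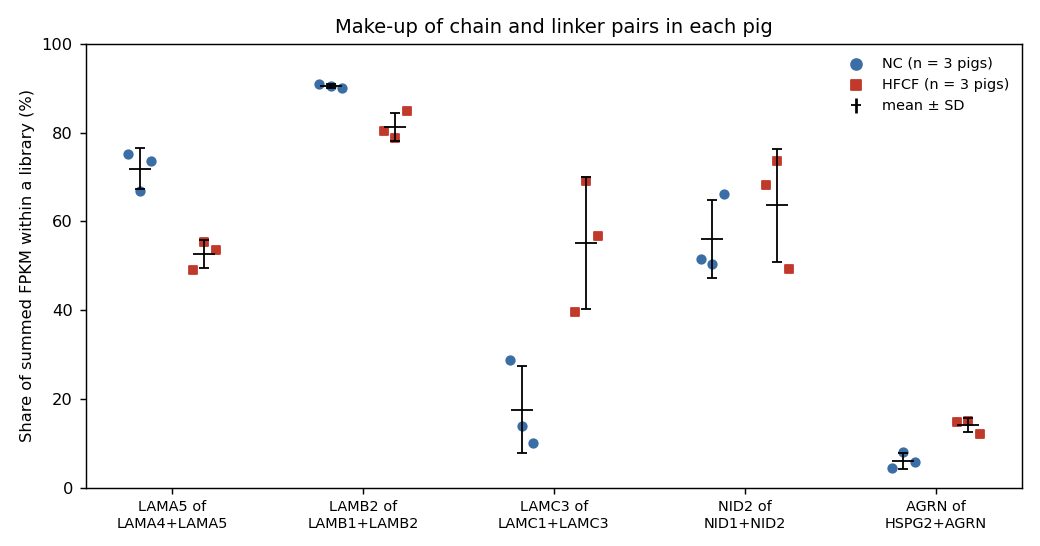
Share of the first gene in the summed FPKM of the genes named under each pair of columns, in percent, for the 3 NC pigs (blue circles) and the 3 HFCF pigs (red squares), with mean and SD. The shares of LAMA5 and LAMB2 are lower and those of LAMC3 and AGRN higher in every HFCF pig, while the NID2 share overlaps.

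Of 5 other laminin chains tested, 1 was lower, LAMB3, and 0 were higher in limma (1 at an unadjusted p under 0.05). LAMC3, a gamma chain with a narrower tissue range than LAMC1, had 29.0, 11.9 and 7.05 FPKM in the NC pigs and 23.2, 72.5 and 42.5 FPKM in the HFCF pigs. The first HFCF pig lay within the NC range, and the log2FC of 1.62 did not pass (adjusted p = 0.0751, limma). As a share of LAMC1 plus LAMC3, a comparison chosen after the values were seen, LAMC3 was 28.8%, 14.0% and 10.1% in the NC pigs, against 39.6%, 69.2% and 56.7% in the HFCF pigs (exact permutation p = 0.1). LAMB3, a chain of the epithelial laminin-332, fell from 2.30 ± 0.37 to 1.001 ± 0.21 FPKM (log2FC -1.13, adjusted p = 0.0181, limma), and LAMA3, the alpha chain of the same trimer, had a log2FC of -0.32 (adjusted p = 0.699, limma). The call of LAMB3 was lost without the first NC pig, the third NC pig or the second HFCF pig. LAMC3 was called higher without the first NC pig. LAMB4, the gene next to LAMB1 in the RefSeq table of Sscrofa11.1, was listed at 0.

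Type IV collagen forms the second network of the basement membrane. Of 6 basement membrane collagens tested, 3 were called lower and 0 higher in limma (0 at an unadjusted p under 0.05), with a median log2FC of -0.53. The call of COL4A2 was kept in all 15 alternatives. That of COL4A1 was lost in 8, among them the fits without the first or the third NC pig and without any single HFCF pig, and that of COL4A6 was lost without any single NC pig. Without the first or the third NC pig, 1 was thus called lower. COL4A2 fell from 668 ± 123.9 to 302 ± 26.7 FPKM (log2FC -1.13, adjusted p = 0.00656, limma). COL4A1, its partner in the ubiquitous collagen IV trimer, fell from 598 ± 84.1 to 382 ± 38.7 FPKM (log2FC -0.64, adjusted p = 0.0352, limma), and COL4A6, a chain of smooth muscle basement membranes, fell from 51.6 ± 4.82 to 21.1 ± 9.58 FPKM (log2FC -1.41, adjusted p = 0.0292, limma). The ratio of LAMC1 to COL4A2 was 0.107 ± 0.027 in the NC group and 0.111 ± 0.016 in the HFCF group (SD, n = 3 each, exact permutation p = 1).

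Other proteins of the basement membrane moved in both directions. Of 15 tested, 2 were higher and 3 lower (median log2FC -0.13). SMOC1, a calcium-binding matrix protein, rose from 4.26 ± 0.49 to 14.6 ± 5.81 FPKM (adjusted p = 0.00666, limma), and NTN4, a netrin that binds laminin gamma chains and is named to complete the count, rose from 5.09 ± 0.25 to 12.7 ± 4.95 FPKM (adjusted p = 0.0292, limma). TINAGL1, a laminin-binding protein of the vascular wall, fell from 80.3 ± 14.8 to 40.8 ± 2.73 FPKM (adjusted p = 0.00861, limma). FRAS1 and PXDN, the peroxidase that crosslinks collagen IV, had log2FC values of -1.32 and -0.76 (adjusted p = 0.013 and 0.0271, limma). SPARC and FBLN1, the most abundant of this list, had log2FC values of -0.14 and -0.13 and were not called. With each of the 3 scalings, and without any single NC pig, the first HFCF pig or the second HFCF pig, 1 gene was called higher, SMOC1. The calls of TINAGL1 and FRAS1 were kept in all 15 alternatives, whereas that of PXDN was lost in 7, among them each fit that left out 1 pig except that without the second HFCF pig.

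Among the receptors for laminin and agrin, 3 of 10 tested were lower and 0 higher in limma (1 higher at an unadjusted p under 0.05), with a median log2FC of -0.45. ITGA7, the integrin alpha chain of muscle laminin receptors, fell from 282 ± 24.9 to 138 ± 24.6 FPKM (log2FC -1.04, adjusted p = 0.00731, limma). BCAM, the Lutheran glycoprotein that binds the laminin alpha 5 chain, fell from 124.5 ± 15.8 to 76.7 ± 7.08 FPKM (log2FC -0.69, adjusted p = 0.0165, limma), and ITGA1 had a log2FC of -0.59 (adjusted p = 0.0467, limma). The call of ITGA7 was kept in all 15 alternatives and that of BCAM in 13, the fit without the first NC pig being 1 of the exceptions. The call of ITGA1 was lost in 9, among them each fit that left out 1 pig except that without the first HFCF pig. Without the first NC pig 1 receptor was called lower, ITGA7, with each of the 3 scalings 4 were called lower, with ITGA3 added, and without the third HFCF pig 1 was called higher, LRP4, the agrin receptor of the neuromuscular junction.

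In the dystrophin complex, which joins dystroglycan to the cytoskeleton, 2 of 9 tested genes were lower and 1 was higher (median log2FC -0.04). DTNA and SGCD had log2FC values of -1.01 and -0.79 (adjusted p = 0.0126 and 0.0218, limma), and SSPN had one of 0.63 (adjusted p = 0.0293, limma). SGCA, the most abundant, had a log2FC of -0.65 and was not called (adjusted p = 0.0793, limma), though it was called lower after median-ratio scaling and after rescaling to TPM. The call of SSPN was lost with each of the 3 scalings and without the first NC pig, the third NC pig, the second HFCF pig or the third HFCF pig. Without the first NC pig, the third NC pig or the second HFCF pig, 1 gene was called lower, DTNA. Of 10 tested genes that build the laminin-binding glycan of dystroglycan, 1 was higher and 0 were lower in limma (2 lower at an unadjusted p under 0.05), with a median log2FC of 0.03. With each of the 3 scalings 2 genes of this list were called lower. POMGNT1 and POMK, the most abundant, had log2FC values of -0.09 and 0.23 and were not called.

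Heparan sulfate is the chain that perlecan and agrin carry. Of 12 tested enzymes, 3 were lower and 1 was higher (median log2FC 0.22). EXTL3, which starts the chain, NDST1 and HS2ST1, which sulfate it, had log2FC values of -0.85, -0.57 and -1.01 (adjusted p = 0.0143, 0.029 and 0.0263, limma). HPSE, the heparanase that cuts the chain, had 0.042, 0.103 and 0.387 FPKM in the NC pigs and 4.47, 2.15 and 2.04 FPKM in the HFCF pigs. All HFCF values were above all NC values, and the log2FC was 3.54 (adjusted p = 0.00498, limma). EXT1 and SULF2, the most abundant enzymes, had log2FC values of -0.59 and 0.28 and were not called, though EXT1 was called lower after median-ratio scaling and after rescaling to TPM. Without the first NC pig, the second NC pig, the first HFCF pig or the third HFCF pig, 1 enzyme was called lower, EXTL3. The calls of EXTL3 and HPSE were kept in all 15 alternatives. That of NDST1 was also lost without the third NC pig, and that of HS2ST1 without the second HFCF pig. Of 8 cell surface heparan sulfate proteoglycans, 1 was higher and 0 were lower in limma (0 at an unadjusted p under 0.05), with a median log2FC of 0.08. SDC2, a syndecan, had a log2FC of 0.77 (adjusted p = 0.0314, limma), and GPC6 had one of -0.27 (adjusted p = 0.449, limma). No proteoglycan of this list was called in limma with each of the 3 scalings and without the first NC pig, the first HFCF pig or the second HFCF pig. Without the second NC pig SDC3 was called in place of SDC2, and without the third NC pig 2 were called, SDC2 and GPC2.

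**Figure D4:**
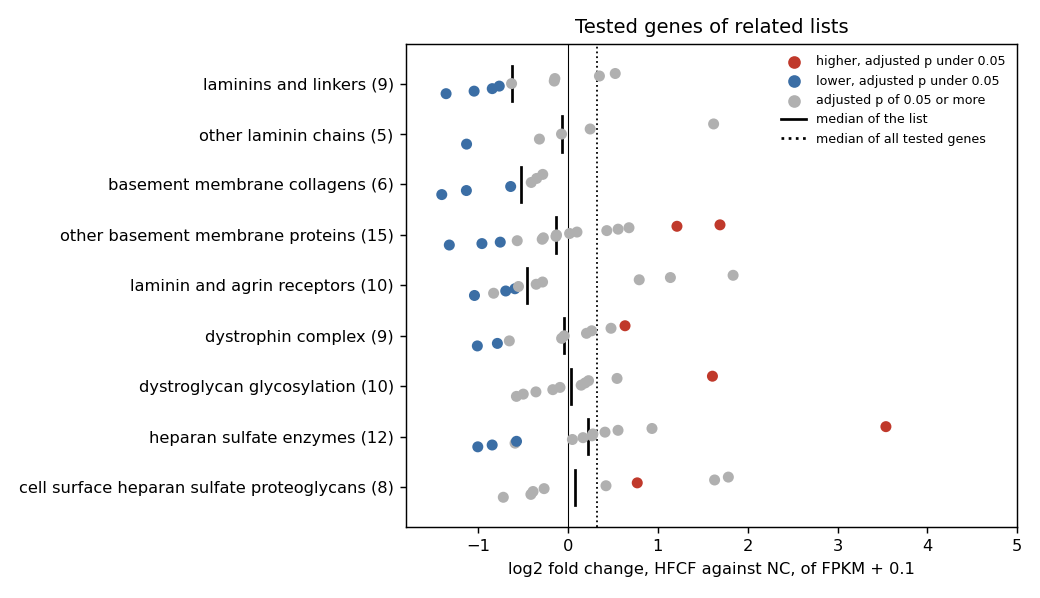
log2FC, HFCF against NC, of each tested gene of the set and of the related lists, with the number tested in brackets, the median of each list (bar) and the median of all tested genes (dotted line). The set (median -0.63), the basement membrane collagens (median -0.53), the laminin and agrin receptors (median -0.45) and the other laminin chains (median -0.07) hold lower calls and no higher call. The highest point is HPSE at 3.54.

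The markers of several cell types moved with diet beside these genes. Of 7 contractile smooth muscle markers, 5 were lower and 0 higher in limma (0 at an unadjusted p under 0.05), with a median log2FC of -0.98. This count moved with single pigs. It was 0 without the first NC pig (4 at an unadjusted p under 0.05) and 3 without the second or the third NC pig. It was 2 without the first or the second HFCF pig and 6, with LMOD1 added, without the third HFCF pig. In these fits the calls of MYH11 and SMTN were lost only without the first NC pig. The summed FPKM of the 7 markers was 15250 to 21429 in the NC pigs and 7707 to 12455 in the HFCF pigs. ACTA2 itself fell from 7618 to 3860 FPKM (log2FC -0.98, adjusted p = 0.0356, limma), and of the fits that left out 1 pig it was called only in that without the third HFCF pig. Of 7 macrophage markers, 6 were higher, and their summed FPKM was 30.8 to 34.4 in the NC pigs and 410.8 to 992 in the HFCF pigs, highest in the first. Of 6 T cell markers, 2 were higher, CD2 and TRAT1, with sums of 0.758 to 1.31 FPKM and 2.77 to 17.4 FPKM. Without the first NC pig 0 T cell markers were called in limma (3 at an unadjusted p under 0.05), and without the second or the third NC pig 1 was called, CD2. None of 7 endothelial markers was called in limma, with 2 higher and 0 lower at an unadjusted p under 0.05 (sums 122.4 to 209 and 102.7 to 249.2 FPKM), and without the third HFCF pig 1 was called higher, TEK. Of the fibroblast markers 1 of 7 was higher, LUM, and without the third HFCF pig 1 was also lower, PI16. Of the pericyte markers 1 of 6 was lower, CSPG4 (2 after median-ratio scaling or quantile normalization, with KCNJ8), and of the Schwann cell markers 1 of 6 was higher, ERBB3. The adipocyte markers were uneven among the NC pigs, with sums of 191.6, 299.9 and 38.1 FPKM, and 73.3 to 100.9 FPKM in the HFCF pigs, and 0 of 6 were called in limma (0 at an unadjusted p under 0.05). Without the third NC pig 4 of them were called lower, ADIPOQ, PLIN1, CIDEC and LIPE. Skeletal muscle markers summed to 0.67 to 11.8 FPKM over the 6 pigs, and 0 of 4 tested were called in limma (1 lower at an unadjusted p under 0.05). The exceptions were the fits without the third NC pig and with quantile normalization, in which CKM was called lower.

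Set against the summed smooth muscle markers of the same library, 3 of the 4 called genes overlapped between the groups. LAMC1 had 3.35, 4.22 and 4.11 FPKM per 1000 FPKM of the markers in the NC pigs, against 4.58, 3.47 and 2.61 in the HFCF pigs, so the groups overlapped (exact permutation p = 0.7). LAMB2 had 11.9, 14.3 and 18.0 in the NC pigs, against 17.2, 18.1 and 12.6 in the HFCF pigs on this scale (exact permutation p = 0.7), and HSPG2 had 13.1 ± 3.09 and 13.5 ± 3.32 (SD, n = 3 each, exact permutation p = 0.8). LAMA5 was the single gene of the 9 whose HFCF values all lay below its NC values, with 5.72, 5.09 and 7.53 against 4.94, 4.96 and 3.35 (exact permutation p = 0.1). The gap was small, and against ACTA2 alone the groups of LAMA5 overlapped (exact permutation p = 0.3).

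LAMA4, LAMB1 and AGRN were higher in every HFCF pig on this scale. LAMA4 had 1.88, 2.53 and 2.68 in the NC pigs, against 5.12, 4.01 and 2.90 in the HFCF pigs, LAMB1 had 1.56 ± 0.42 against 3.77 ± 1.37 (SD, n = 3 each), and AGRN had 0.623, 0.865 and 0.975 against 2.27, 3.02 and 1.46 (exact permutation p = 0.1 each). The third HFCF pig, which had the highest sum of smooth muscle markers in its group, was the lowest of the HFCF pigs in each. NID1 and NID2 overlapped between groups (exact permutation p = 0.7 and 0.2), and per ACTA2 alone NID2 was higher in every HFCF pig (exact permutation p = 0.1). The lowest adjusted p over these 9 ratios was 0.225. These ratios divide by markers whose sums did not overlap between the groups. All calls of these markers were lost without the first NC pig, whereas MYH11 and SMTN kept theirs without any other single pig. The part of smooth muscle content in the fall of the 4 genes was not tested further.

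**Figure D5:**
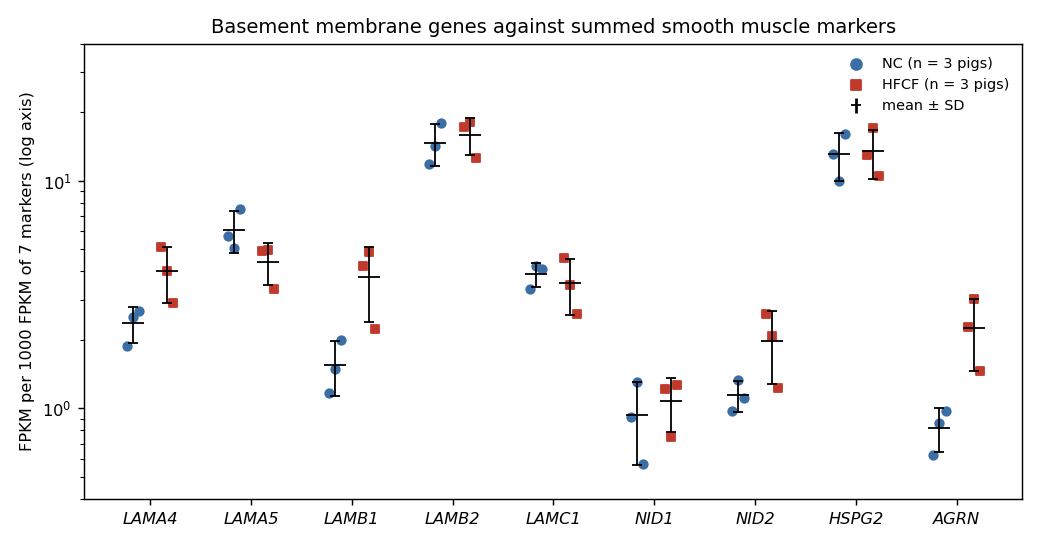
FPKM of each gene per 1000 summed FPKM of 7 contractile smooth muscle markers in the same library (log axis), in the 3 NC pigs (blue circles) and the 3 HFCF pigs (red squares), with mean and SD. LAMB2, LAMC1 and HSPG2 overlap between the groups, whereas LAMA4, LAMB1 and AGRN are higher in every HFCF pig.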

How the data were processed

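Abdominal aorta RNA of 3 NC and 3 HFCF pigs was sequenced as paired-end reads. Per the submitters' notes and the methods, the authors used cutadapt 1.9, FastQC, HISAT2 and StringTie and deposited FPKM values per gene, which were used as given. A listed value of 0.0001 was read as 0. The pig genome build named in the methods differs from that of the RefSeq table at hand (Sscrofa11.1), so positions are not given, and no sequences were used here. Nothing states more than 1 library per pig.

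The data were analysed as log2(FPKM + 0.1) with limma 3.58.1 in R 4.3.3 (diet as the only factor, eBayes with trend) for genes whose mean FPKM reached 0.1. Genes were called at a Benjamini-Hochberg adjusted p under 0.05 over all tested genes. Ratios within a library were compared with two-sided exact permutation tests. In each related list, up to 4 called genes with the smallest adjusted p and the 2 most abundant genes were named. Other genes are named to complete a count or as a neighbour and were chosen after their values were seen. The genes of the set and the lists were chosen with earlier results of these data known. List genes without a row under their name were matched by gene ID. Alternatives were other pseudocounts, filters and scalings, eBayes without trend, a replicate block, the DEG thresholds of the study, and leaving out each pig. The fit was tested on simulated data. The values of some genes of the related lists are not reported here.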

Additional observations from a re-analysis of the deposited data

How the results depend on the processing

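The calls of LAMA5, LAMB2 and LAMC1 were kept in all 15 alternative fits, and that of HSPG2 in 8 of them. The number of genes called lower (4) was 3 to 4 without each pig in turn, 3 without a filter or a variance trend, 5 after median-ratio scaling and 2 by the thresholds of the study. No gene of the set was called higher in limma in any of these. LAMB1 turned from a log2FC of 0.35 to -0.007 after median-ratio scaling. Without each pig in turn, the group difference was -21.8 to -17.5 percentage points in the LAMA5 share of LAMA4 plus LAMA5, -10.9 to -7.90 in the LAMB2 share of LAMB1 plus LAMB2 and 2.60 to 14.8 in the NID2 share of the nidogens.

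The replicate numbers are shared by both groups. The deviations of same-numbered pigs correlated at 0.021, -0.079 and -0.072 across genes. No pairing by number was thus visible, but with 3 pigs per group these values cannot exclude one. With the replicate block, 3 genes of the set were called lower, and 2232 genes in all were called higher and 540 lower, against 3505 and 948. Without a single pig, 1979 to 2815 genes were higher and 442 to 786 lower. Read depths were not used, and 3 pigs per group limit what can be seen. With the replicate block 3 smooth muscle markers, 1 T cell marker (CD2) and 1 endothelial marker (TEK, higher) were called, and without a filter 2 smooth muscle markers. With a mean FPKM of at least 1, TEK was called higher, and CD2 and TRAT1 were removed by the filter and not tested.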

Other observations

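Outside the set, 53 tested genes carry the GO term basement membrane in the deposited table. Of these, 3 were called higher and 9 lower in the HFCF group, with a median log2FC of -0.13. The genes named next were chosen after their values were seen. TNC, the matrix glycoprotein tenascin C, fell from 210.2 to 71.5 FPKM (adjusted p = 0.00836, limma). CD151, a tetraspanin that partners with laminin-binding integrins, fell from 529 to 270.3 FPKM (adjusted p = 0.0189, limma), and P3H2, a prolyl hydroxylase that modifies collagen IV, fell from 14.4 to 7.14 FPKM (adjusted p = 0.0208, limma). The call of TNC was kept in all 15 alternatives, that of CD151 in 13 (lost without the first NC pig and with the replicate block) and that of P3H2 in 11 (lost without the first NC pig, the second NC pig, the second HFCF pig or the third HFCF pig). The 3 higher calls (NTN4, TIMP1 and ATRN) were lost with each of the 3 scalings and without any single NC pig. The call of TIMP3 (lower) was lost in 9 alternatives, among them each fit that left out 1 pig except that without the third NC pig.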
